A study of Mus musculus with 48 samples.

Results

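The genes described here are 9 that mark GABAergic neurons: Gad1 and Gad2, which encode the glutamate decarboxylases that make GABA; Slc32a1, the transporter that loads GABA into synaptic vesicles; Pvalb, Sst, Vip, Npy and Cck, a calcium-binding protein and 4 neuropeptides of interneuron classes; and Reln, the secreted glycoprotein reelin. They were taken by symbol from a deposited table of 19963 rows, in which all 9 were found once. The table comes from GeoMx digital spatial profiling of mouse brain, which counts light-released tags of hybridised probes from regions drawn on a stained section. Regions were chosen by staining for TMEM119, a microglial protein, and GFAP, an astrocyte protein. By heading, 6 of its 16 columns are WT, 5 are 5xFAD and 5 are 5xFAD-LynKO.

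WT is the wild type. The 5xFAD line is an amyloid model that carries mutant human transgenes driven by the neuronal Thy1 promoter, and 5xFAD-LynKO carries the same transgenes in animals deficient in Lyn, a Src-family kinase. The 5xFAD alleles are thus shared by both of the non-WT groups, and LynKO without 5xFAD was not analysed here, nor was the APP group. The sources used here give no age, sex, strain or brain area. Regions are not tied to animals. With 6 regions of each marker per slice stated in the design, columns of a genotype may come from 1 animal, and p-values over columns are then too small. The columns were taken as TMEM119-positive regions from the design text, because the headings name no marker.

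GABA, the main inhibitory transmitter of the adult brain, is made from glutamate by the decarboxylases GAD67 (Gad1) and GAD65 (Gad2), the latter being concentrated at axon terminals. The vesicular transporter encoded by Slc32a1 is shared by GABA and glycine neurons. Cortical and hippocampal interneurons are classed by parvalbumin, somatostatin or vasoactive intestinal peptide, with neuropeptide Y, cholecystokinin and reelin in further overlapping classes, whereas the projection neurons of the striatum are themselves GABAergic. Cck is also transcribed in many excitatory pyramidal cells, so its RNA is not a marker of interneurons alone. None of the 9 is a microglial gene. A region drawn on microglial staining can hold their RNA through neuronal cell bodies and processes within it, which was not tested here.

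Gad2 and Slc32a1 varied together from column to column, Gad1 varied with Slc32a1 and less with Gad2, and Cck varied in the opposite direction to Gad2. The promoters of these 4 genes are therefore shown. Each runs from 250 bases before to 50 bases after the start site, 5′ to 3′ on the gene's strand, as given by RefSeq for GRCm38.p6. They lie at chr2:70561879-70562178 (plus strand, Gad1), chr2:22622077-22622376 (plus strand, Gad2), chr2:158610508-158610807 (plus strand, Slc32a1) and chr9:121495645-121495944 (minus strand, Cck). Capitals mark the E-box CACCTG, the core CGTCA of the cAMP response element and the box TATAAA, each on either strand; the motifs were chosen with these sequences in view.
Gad1: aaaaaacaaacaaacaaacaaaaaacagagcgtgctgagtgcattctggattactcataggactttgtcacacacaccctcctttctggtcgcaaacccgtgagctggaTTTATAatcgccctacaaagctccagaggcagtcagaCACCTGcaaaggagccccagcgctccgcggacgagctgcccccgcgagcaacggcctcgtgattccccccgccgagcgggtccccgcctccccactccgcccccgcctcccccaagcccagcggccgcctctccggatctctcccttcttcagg
Gad2: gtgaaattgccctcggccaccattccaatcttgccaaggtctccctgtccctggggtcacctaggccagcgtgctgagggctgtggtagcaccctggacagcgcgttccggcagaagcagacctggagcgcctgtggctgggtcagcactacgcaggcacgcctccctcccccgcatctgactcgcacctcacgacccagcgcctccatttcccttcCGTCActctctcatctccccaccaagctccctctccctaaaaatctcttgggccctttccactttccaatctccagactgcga
Slc32a1: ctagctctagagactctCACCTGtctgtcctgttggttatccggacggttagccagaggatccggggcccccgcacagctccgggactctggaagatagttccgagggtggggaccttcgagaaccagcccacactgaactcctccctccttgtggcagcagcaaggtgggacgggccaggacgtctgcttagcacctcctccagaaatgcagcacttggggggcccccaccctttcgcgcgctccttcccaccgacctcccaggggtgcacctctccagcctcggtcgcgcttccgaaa
Cck: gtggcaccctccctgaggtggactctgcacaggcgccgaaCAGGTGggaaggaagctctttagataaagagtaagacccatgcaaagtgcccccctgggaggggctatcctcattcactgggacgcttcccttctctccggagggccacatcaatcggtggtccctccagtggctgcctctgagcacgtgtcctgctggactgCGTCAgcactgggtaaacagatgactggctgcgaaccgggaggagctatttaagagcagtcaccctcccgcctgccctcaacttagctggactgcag

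Counted in bases from the start site, CACCTG began at position -104 in Gad1, at -233 in Slc32a1 and, on the reverse strand, at -210 in Cck. The motif CGTCA began at -33 in Gad2 and at -47 in Cck, and TATAAA, on the reverse strand, at -141 in Gad1. The 3 motifs do not overlap here. Of 32851 mouse promoters of this length, 20.2% held CACCTG, 20.8% held CGTCA and 13.6% held TATAAA. No motif was in all 3 of the promoters of Gad1, Gad2 and Slc32a1, and these letters are a description of the windows only.

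The deposited signal differed in scale between genotypes, with a column median of 86.7 in WT, 159 in 5xFAD and 196 in 5xFAD-LynKO, so each value is given below as a multiple of its own column's median over targets. Whole-number steps in the signal imply totals of 1194249 to 2548601 probe counts per WT column, 3205406 to 4148785 per 5xFAD column and 3207095 to 5793534 per 5xFAD-LynKO column. The 9 genes rested on 22 to 666 implied counts per column, if the steps are whole probe counts, which the files do not state. Averaged over all 19963 rows, WT columns 5 and 6, and likewise 5xFAD columns 3 and 5, differed little beyond count noise. This takes the implied counts as counts, with chi-squares of 1.16 and 1.18 per degree of freedom. Noise alone would give 1, and the 35 same-genotype pairs spanned 1.16 to 6.64. Most rows did not exceed background by the measure given below, and fewer counts lower the value, so targets with signal can still differ. Penk, the enkephalin precursor gene, was at 15.7 times the column median in WT 5 and 7.99 in WT 6. The RNA of the staining targets did not bear out a clean microglial label, and only Gfap in WT went against it. Tmem119 lay at 0.578 to 1.09 times the negative probe over all columns, so its probe gave no check of the label. Gfap lay at 2.52 to 6.88 times in WT, but only at 1.11 to 1.41 times in 5xFAD and 1.11 to 1.70 times in 5xFAD-LynKO. Lyn lay between 1.07 and 1.51 times the negative probe in every genotype, including 5xFAD-LynKO, so it gave no check of the knockout. Where its probe lies relative to the deleted part is not given.

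Whether each gene could be seen at all was set by the negative control probe, a sequence absent from the mouse genome. A target counted as above background when it exceeded 1.5 times that probe in at least 5 of the 16 columns, as 3364 targets did. Gad1 did so in 14 columns, Cck in 9, and Gad2 and Slc32a1 in 6 each, which made 4 of the 9 genes above background. Reln exceeded the mark in 3 columns, Pvalb, Sst and Vip in 1 column each and Npy in none. A second yardstick was the level below which 95% of 1154 olfactory, vomeronasal and taste receptor targets lay in the same column, at 1.30 to 1.67 times the negative probe. Gad1 was above it in all 16 columns, Slc32a1 and Cck in 8, Gad2 in 6, Reln in 5, Sst in 3, Pvalb and Vip in 1 and Npy in 0. The peptide and parvalbumin transcripts other than Cck were therefore not separable from probe background in most columns.

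**Figure D1:**
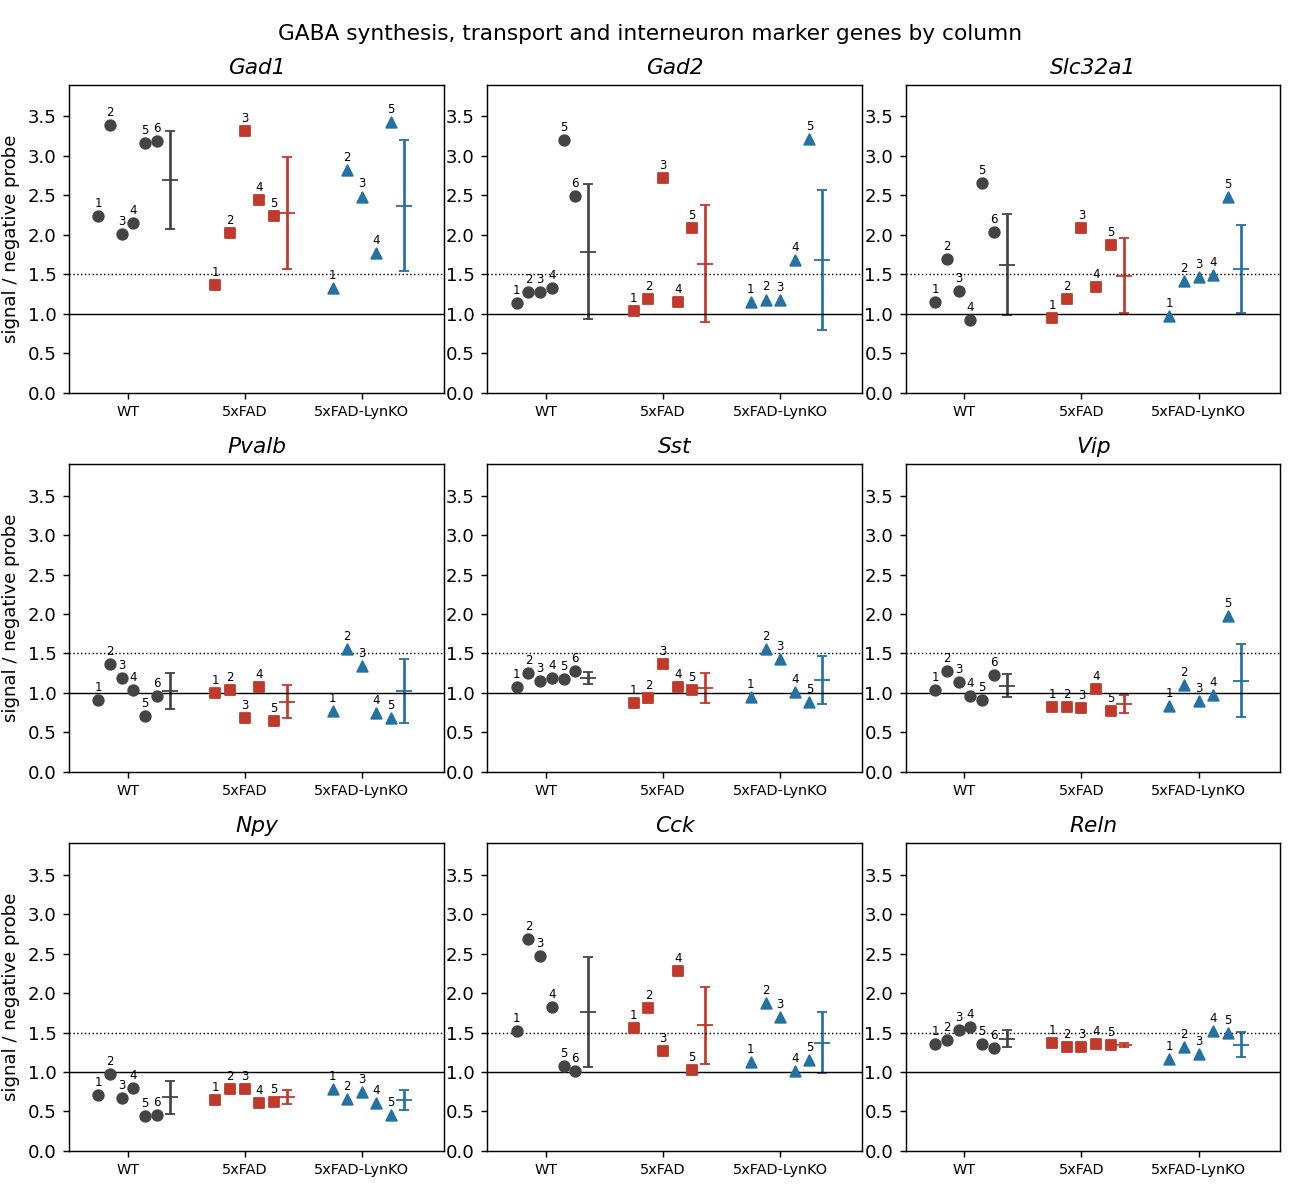
Signal of each of the 9 genes divided by the negative probe of the same column (y axis), by genotype (x axis), with 1 point per column labelled by its heading number and bars for mean ± SD (n = 6, 5 and 5). The solid line is the negative probe and the dotted line 1.5 times it; Gad1 lies above the dotted line in 14 columns, and Npy lies below the solid line in all 16.

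Gad1 was detected in most columns of each genotype. In WT its level was 1.79 at the lowest, 2.42 at the median and 2.93 at the highest. In 5xFAD columns 1 to 5 it was 1.30, 1.90, 3.17, 2.28 and 2.13, and in 5xFAD-LynKO columns 1 to 5 it was 1.29, 2.58, 2.36, 1.70 and 3.12. The 3 groups overlapped over most of their range, and the lowest values were those of column 1 in 5xFAD and in 5xFAD-LynKO. The means were 2.40 ± 0.542 (SD, n = 6) in WT, 2.16 ± 0.679 (n = 5) in 5xFAD and 2.21 ± 0.724 (n = 5) in 5xFAD-LynKO.

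Gad2 was high in a minority of columns and near background in the others. In WT columns 1 to 6 it stood at 1.01, 1.10, 1.14, 1.19, 2.87 and 2.28. In 5xFAD it stood at 0.981, 1.12, 2.60, 1.07 and 1.99, and in 5xFAD-LynKO at 1.11, 1.08, 1.11, 1.62 and 2.93. The high columns were WT 5 and 6, 5xFAD 3 and 5, and 5xFAD-LynKO 4 and 5, so each genotype had 2 of them and the groups overlapped throughout. Those are also the 6 columns in which Gad2 exceeded 1.5 times the negative probe, at 1.68 to 3.22 times, against 1.03 to 1.33 times in the other 10.

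Slc32a1, which serves release rather than synthesis, followed Gad2. It stood at 1.03, 1.45, 1.15, 0.831, 2.38 and 1.86 in the WT columns. Levels in 5xFAD were 0.896, 1.12, 1.99, 1.24 and 1.78, and in 5xFAD-LynKO 0.938, 1.29, 1.39, 1.44 and 2.26. The highest columns were again WT 5 and 6, 5xFAD 3 and 5 and 5xFAD-LynKO 5, while 5xFAD-LynKO 4 stood only slightly above columns 2 and 3 of that genotype. Across the 16 columns, with genotype means removed, the log2 levels of Gad2 and Slc32a1 had a Pearson r of 0.89 and a Spearman rho of 0.72. Gad1 had an r of 0.81 and a rho of 0.78 with Slc32a1, but an r of 0.62 and a rho of 0.48 with Gad2. These correlations describe columns that share their scaling and perhaps their animals, and those with Gad2 rest on its few high columns.

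Pvalb, the marker of fast-spiking interneurons, lay near or below the negative probe. Its level in WT was 0.636 at the lowest, 0.904 at the median and 1.17 at the highest. In 5xFAD it was 0.955, 0.969, 0.654, 1.01 and 0.608, and in 5xFAD-LynKO 0.744, 1.43, 1.28, 0.720 and 0.616. Only 5xFAD-LynKO column 2 exceeded 1.5 times the negative probe, at 1.56 times. WT 5, 5xFAD 3 and 5, and 5xFAD-LynKO 4 and 5 were low, and these are columns where Gad2 was high. The match was not complete, since 5xFAD-LynKO 1, at 0.744, was also low but had no high Gad2. WT 6, with high Gad2, was at 0.877, above WT 1 at 0.811, which had no high Gad2. In descriptive terms Pvalb had an r of -0.75 with Gad2 and of 0.83 with Cck over the 16 columns.

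Sst, which encodes the peptide of dendrite-targeting interneurons, spanned 0.959 to 1.17 in WT, with a median of 1.06. The 5xFAD columns gave 0.831, 0.882, 1.31, 1.01 and 0.983, and the 5xFAD-LynKO columns 0.917, 1.43, 1.35, 0.973 and 0.808. The highest values were in 5xFAD-LynKO columns 2 and 3 and 5xFAD column 3, and all groups overlapped. Sst shared little of the variation of Gad2, with an r of 0.02.

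Vip, which encodes vasoactive intestinal peptide of interneurons that largely contact other interneurons, spanned 0.818 to 1.12 in WT, with a median of 0.975. In 5xFAD it was 0.779, 0.769, 0.778, 0.983 and 0.727, and in 5xFAD-LynKO 0.806, 1.01, 0.848, 0.941 and 1.79. A single column, 5xFAD-LynKO 5, stood apart at 1.97 times the negative probe, and every other column lay at or below 1.28 times. The WT and 5xFAD ranges overlapped through 5xFAD column 4.

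Npy was below the negative probe in every column, at 0.446 to 0.980 times it. In WT its level was 0.400 at the lowest, 0.617 at the median and 0.841 at the highest, in 5xFAD 0.562 to 0.745, and in 5xFAD-LynKO 0.418 to 0.756. Values below a control probe carry no evidence of the transcript, and the order of these columns is not read as expression of neuropeptide Y.

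Cck was the peptide gene with a clear signal. Its level in WT columns 1 to 6 was 1.36, 2.30, 2.21, 1.64, 0.964 and 0.926. In 5xFAD it was 1.49, 1.70, 1.22, 2.12 and 0.977, and in 5xFAD-LynKO 1.09, 1.71, 1.61, 0.978 and 1.05. The low columns were WT 5 and 6, 5xFAD 3 and 5, and 5xFAD-LynKO 1, 4 and 5, which takes in all 6 columns with high Gad2. The r between Cck and Gad2 was -0.74 over the 16 columns.

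Reln varied least. It spanned 1.20 to 1.41 in WT, with a median of 1.22, and 1.24 to 1.30 in 5xFAD. The 5xFAD-LynKO columns were 1.13, 1.20, 1.17, 1.47 and 1.36. All 16 columns lay above the negative probe, at 1.16 to 1.56 times, and columns of the 3 genotypes overlapped.

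How far columns of 1 genotype differed was then set against how far genotypes differed. The within-genotype SD of the log2 level was 0.43 for Gad1, 0.63 for Gad2, 0.50 for Slc32a1, 0.47 for Cck and 0.40 for Pvalb. The median over 3363 targets above background was 0.18. Gad2 was at the 99.3 percentile of those targets and Slc32a1 at the 97.6 percentile. Reln, with an SD of 0.11, would lie at the 7.52 percentile of them, but it was not itself above background. The largest difference between any 2 genotype means was 0.03 log2 for Gad2, 0.06 for Slc32a1 and 0.18 for Gad1. The spread of the GABA synthesis and transport genes thus lay largely within genotypes, among columns that are not tied to animals. An SD of single columns tends to exceed a difference between group means, so these are unlike measures.

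**Figure D2:**
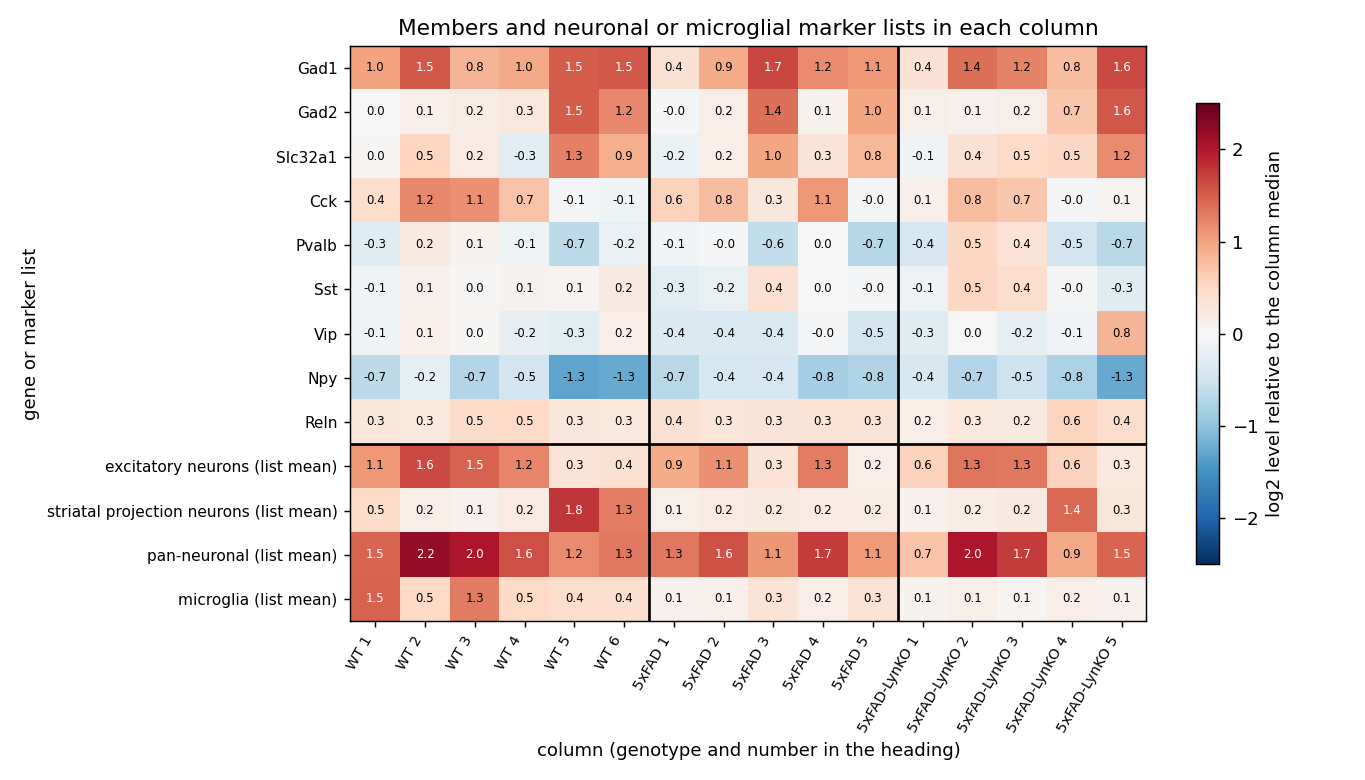
Log2 level relative to the column median (colour and printed value) for the 9 genes and for the mean of 4 marker lists (rows) in the 16 columns (x axis, by genotype). Gad2 and Slc32a1 are high and Cck and the excitatory list low in WT 5 and 6, 5xFAD 3 and 5 and 5xFAD-LynKO 5, and the striatal list is high in WT 5 and 6 and 5xFAD-LynKO 4.

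Some markers of other neurons moved with these genes. The excitatory list, 8 genes that mark glutamatergic neurons, had a mean log2 level of 0.33 and 0.38 in WT columns 5 and 6 against 1.08 to 1.65 in the other WT columns. It was 0.34 and 0.17 in 5xFAD columns 3 and 5 against 0.92 to 1.28 in the others, and 0.57 and 0.26 in 5xFAD-LynKO columns 4 and 5 against 0.57 to 1.34. Slc17a7, which encodes the vesicular glutamate transporter of cortical and hippocampal excitatory neurons, was 0.841 to 1.24 times the column median in the 6 columns with high Gad2 and 1.55 to 6.40 times in the other 10. Of the 8 genes, 4 were above background, and not all followed this pattern. Camk2a was at 4.33 times in WT 5 and 4.37 in WT 4. Slc17a6, not above background and picked after its values were seen, was highest in 5xFAD-LynKO 5, at 1.30 times. Over the 16 columns the excitatory list had an r of 0.96 with Cck, 0.90 with Pvalb and -0.86 with Gad2. Pvalb exceeded the negative probe in only 8 columns, so its r is not read as expression of parvalbumin. Cck thus tracked the excitatory markers more closely than any other of the 9 genes in these columns.

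The columns with high Gad2 were not of 1 kind by their other neuronal markers. The striatal list, 10 genes of striatal projection neurons, had a mean log2 level of 1.79 in WT 5, 1.27 in WT 6 and 1.44 in 5xFAD-LynKO 4, and of 0.11 to 0.47 in the other 13 columns. Ppp1r1b, which encodes the dopamine-regulated phosphatase inhibitor DARPP-32, was at 9.15, 6.52 and 8.25 times the column median in those 3 columns. In 5xFAD 3, 5xFAD 5 and 5xFAD-LynKO 5 it was at 1.20, 0.909 and 0.788 times. Scg2, a granin of dense-core vesicles, was at 3.94, 2.86 and 6.79 times in the last 3 columns and at no more than 1.98 times in the other 13. Slc6a11, the GABA transporter GAT-3, was at 1.56, 2.72 and 3.25 times there and at no more than 1.35 times elsewhere. Ppp1r1b, Scg2 and Slc6a11 were picked for these sentences after their values were seen. Brain area is not labelled, and its part in these differences was not tested; in such regions fewer cells of a type and less RNA per cell cannot be told apart.

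**Figure D3:**
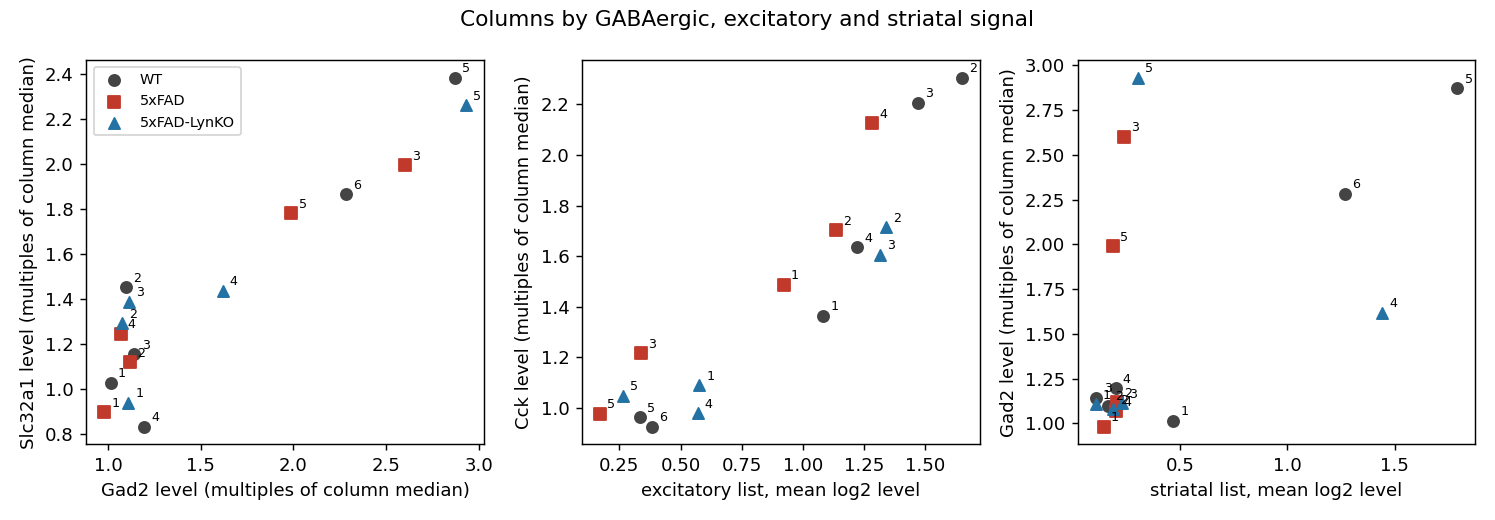
Each point is 1 of the 16 columns, coloured by genotype and labelled by its number. Left, Slc32a1 against Gad2 (both as multiples of the column median); middle, Cck against the excitatory list's mean log2 level; right, Gad2 against the striatal list's mean log2 level. Slc32a1 is high in the columns where Gad2 is highest, Cck follows the excitatory list, and 3 columns with high Gad2 have a low striatal list.

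The design then asks whether amyloid transgenes, and loss of Lyn on that background, changed these genes. None of the 9 passed the test in any of the 3 comparisons, and the columns of the groups compared overlapped for all 9 each time. In 5xFAD against WT, 0 of 9 had a limma adjusted p under 0.05, where 14.2% of the 19960 targets tested did, and 18.6% of those above background. The corresponding background was 0% between the 2 groups with 5xFAD alleles and 0.0601% when 5xFAD-LynKO was set against WT, and a count of 0 members is at or near those shares. Groups that did not overlap were found for 5.1% of targets in the first of these comparisons, 2.69% in the second and 0.646% in the third. At an unadjusted p under 0.05 the counts were 0, 1 and 0 of 9, where 30%, 11.3% and 8.82% of targets passed.

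Gad1 was lower by 0.18 log2 in 5xFAD than in WT, with a 95% interval of -0.59 to 0.23 (limma adjusted p = 0.58). The Gad2 difference was -0.03 log2, with an interval of -0.58 to 0.51, and that of Slc32a1 -0.01 log2, with an interval of -0.46 to 0.43. The intervals are wide, and neither excludes a change of 0.4 log2 in either direction for Gad2 or Slc32a1. Cck differed by -0.02 log2 (-0.44 to 0.40) and Pvalb by -0.13 log2 (-0.50 to 0.23). The Sst difference was -0.09 log2, from -0.34 to 0.15, and Npy differed by 0.14 log2, from -0.19 to 0.48. Reln gave the tightest estimate, at -0.00 log2 with an interval of -0.17 to 0.17. Vip came closest to the threshold, at -0.27 log2 (-0.55 to 0.01), with a limma adjusted p of 0.186.

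For 5xFAD-LynKO against 5xFAD, Vip had the smallest p of the 9. It was 0.36 log2 higher (0.06 to 0.65) and did not pass, the limma adjusted p being 0.313. Without 5xFAD-LynKO column 5 the difference was 0.16 log2 (limma adjusted p = 0.782, in a range of 0.144 to 0.788 over the alternative settings), so the value rests to a large extent on that 1 column. Gad1, Gad2 and Slc32a1 differed by 0.03, 0.01 and 0.06 log2, with intervals of -0.40 to 0.46, -0.56 to 0.58 and -0.41 to 0.53. Cck was 0.21 log2 lower in the knockout cross, with an interval of -0.65 to 0.23, and Pvalb 0.14 log2 higher, with an interval of -0.24 to 0.52. Sst was 0.11 log2 higher (-0.15 to 0.37), Npy 0.11 log2 lower (-0.46 to 0.24) and Reln 0.01 log2 lower (-0.18 to 0.17).

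In 5xFAD-LynKO against WT, which shares its samples with the other comparisons, the largest difference was that of Cck, at -0.23 log2 with an interval of -0.65 to 0.19 (limma adjusted p = 0.754). Gad1 differed by -0.15 log2 (-0.56 to 0.26), Gad2 by -0.02 (-0.57 to 0.53) and Slc32a1 by 0.05 (-0.40 to 0.49). Vip differed by 0.09 log2 (-0.19 to 0.37), and Pvalb, Sst, Npy and Reln by 0.01, 0.02, 0.04 and -0.01 log2. The median difference over the 9 genes was -0.03, 0.03 and 0.01 log2 in the 3 comparisons, beside 0.01, 0.00 and 0.00 over all targets and -0.16, 0.07 and -0.09 over targets above background. All these differences are on a log2(value + 1) scale with no background subtracted, which understates changes of targets near the negative probe.

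**Figure D4:**
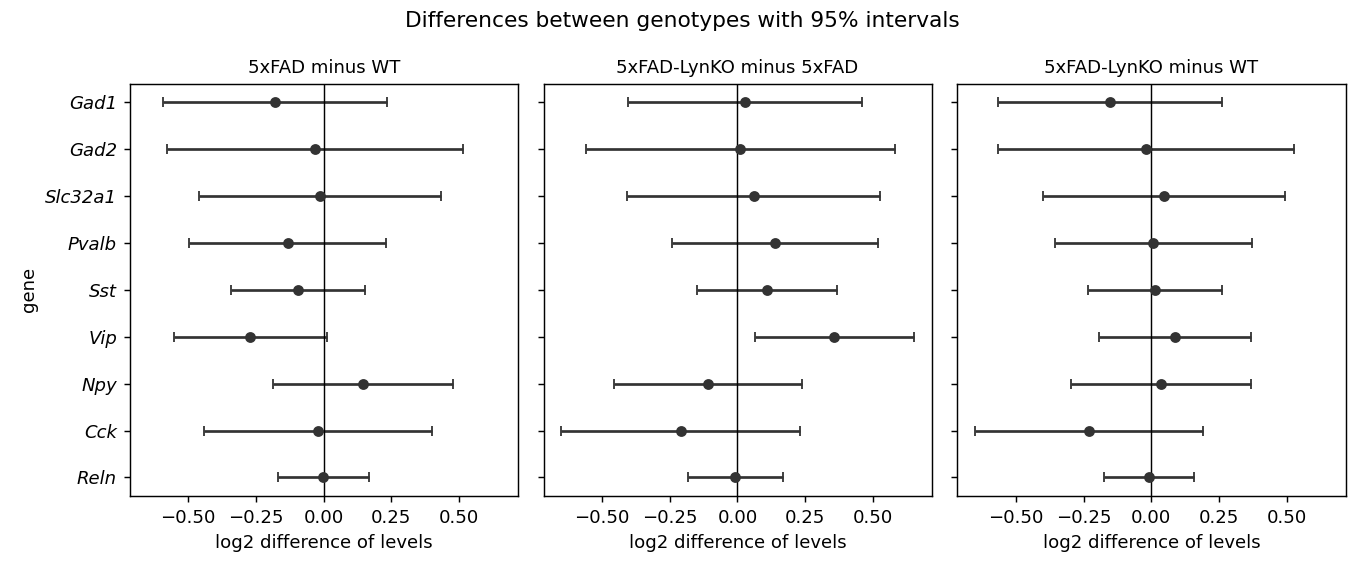
Difference in mean log2 level (points, x axis) with 95% intervals from the limma fit (bars) for the 9 genes (y axis) in the 3 comparisons. Every interval includes 0 except that of Vip in 5xFAD-LynKO minus 5xFAD, whose adjusted p was 0.313.

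Microglial markers differed between the same groups. Of 12 microglial genes tested, 7 fell in 5xFAD against WT, where 8.23% of all targets fell and 5.99% rose. In 5xFAD-LynKO against WT 5 of the 12 fell, where 0.0551% of all targets fell and 0.00501% rose, and 0 were called between the 5xFAD groups. Without 5xFAD-LynKO column 1 or column 3, 1 target of all 19960 passed against WT, so at most 1 of these 5 calls held there. The list's mean log2 level was 1.48 and 1.30 in WT columns 1 and 3, and 0.43 to 0.50 in the other WT columns. It was 0.11 to 0.34 in 5xFAD and 0.08 to 0.17 in 5xFAD-LynKO. The calls of this list were not counted without WT columns 1 and 3. Among 13 pan-neuronal genes, 1 fell in 5xFAD against WT, namely Rbfox3, which encodes the nuclear protein NeuN, by 0.44 log2 (limma adjusted p = 0.0421). The pan-neuronal mean log2 level spanned 1.17 to 2.20 in WT, 1.07 to 1.75 in 5xFAD and 0.71 to 2.03 in 5xFAD-LynKO. No gene of the excitatory or striatal lists was called in any comparison, where 14.2% of all targets were called in 5xFAD against WT. With lists this short, that count is not read as a result about those neurons. The part of cell content in the results for the 9 genes was not tested beyond fits with the pan-neuronal, excitatory or striatal level as a covariate, under each of which 0 of 9 passed in every comparison.

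The rest of the GABA pathway held no called gene. Of 9 genes of GABA turnover and uptake, 4 were above background and 0 passed in any comparison. Over all targets, 14.2% passed in 5xFAD against WT, 0% between the 5xFAD groups and 0.0601% in 5xFAD-LynKO against WT. With 9 genes a count of 0 is not far from those shares, so it is not read as a result about the pathway. Pdxk, which makes the pyridoxal phosphate cofactor of the decarboxylases, was at 1.56 to 2.01 times the column median in WT, 1.64 to 1.78 in 5xFAD and 1.26 to 2.30 in 5xFAD-LynKO, and its groups overlapped.

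Interneuron transcription factors and further class markers were mostly at background. Of 16 transcription factors, 3 were above background, and 1 rose and 2 fell in 5xFAD against WT, a share close to the 14.2% of all targets called in that comparison. Among these, Npas1 was 0.35 log2 higher and Dlx5 0.36 log2 lower (limma adjusted p of 0.010 and 0.0277). Dlx5, a homeobox factor of the ganglionic eminences, was above background and Npas1 was not. Lhx6, the factor of Pvalb and Sst lineages, was at 1.41 to 1.76 times the median in WT and 1.29 to 1.73 in 5xFAD and did not pass. Of 20 other interneuron markers, Nos1, the neuronal nitric oxide synthase, was 0.36 log2 higher and Ndnf, of neurogliaform cells, 0.27 log2 higher in 5xFAD (limma adjusted p of 0.0112 and 0.0227); neither was above background, and 2 of 20 is below that 14.2%. Kcnc1, a potassium channel of fast-spiking cells, and Tac1, the substance P precursor, were not called.

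Receptors for these peptides and for reelin numbered 15, none of them above background. Sstr2, a somatostatin receptor, was 0.22 log2 higher and Npy2r, a neuropeptide Y receptor, 0.31 log2 higher in 5xFAD than in WT (limma adjusted p of 0.0373 and 0.0256), and the other 13 did not pass, which is also near the 14.2% of all targets called. Among 13 other neuropeptides, Hcrt, the orexin precursor, was 0.38 log2 higher in 5xFAD (adjusted p = 0.0482), at a level of 0.721 times the column median and below background. Penk, the enkephalin precursor, reached 15.7, 7.99, 7.35 and 5.21 times in WT 5, WT 6, 5xFAD-LynKO 4 and 5xFAD-LynKO 5 and was at 1.64 to 2.47 times elsewhere, so 4 of the 6 columns with high Gad2 were its highest. Of 10 genes of peptide processing, which include the abundant carboxypeptidase gene Cpe, 0 passed. Of 7 perineuronal net genes Tnr, encoding tenascin-R, fell by 0.38 log2 in 5xFAD against WT (limma adjusted p = 0.00785). None of these 7 was above background, and Tnr averaged 1.29 times the negative probe in WT and 0.938 times in 5xFAD. A single gene called of 13 or of 7, or 0 of 10, is likewise read against that background share. In 5xFAD-LynKO no gene of these 7 lists was called against either of the other genotypes, where 0.0601% of all targets were called against WT and 0% against 5xFAD.

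For the 4 genes above background, the targets whose log2 levels followed them most closely over the 16 columns, genotype means removed, were listed. Gad2 was most like Slc32a1 (r = 0.89), Nrsn2 (0.86) and Wfs1 (0.84), and Slc32a1 most like Csdc2 (0.89), Gad2 (0.89) and Nsg1 (0.86). Gad1 was most like Galnt16 (0.90), Elmo1 (0.88) and Arl3 (0.85). Cck was most like Dlgap1 (0.99), Dnm1 (0.96) and Mef2c (0.96), of which Dlgap1 encodes a postsynaptic scaffold of excitatory synapses and Dnm1 the neuronal dynamin of vesicle recycling. Gad2 and Slc32a1 were thus among each other's closest 3 of the 3363 targets above background, and Gad1 was not among them. The r values were the highest of many and describe these columns only.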

How the data were processed

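The authors deposited 1 table of signal, at or above 0 throughout, with 16 columns headed by genotype and number per the file headers. The sources used here name neither the software and probe filters nor the normalization. In each column at least 19959 of 19963 rows were whole multiples of 1 step (tolerance 0.001 of a step), and dividing by it gave the implied counts. The levels are log2(value + 1) minus the column median, since deposited medians differed between genotypes by up to 1.17 log2. Genotypes were compared by lmFit, contrasts and eBayes with trend (limma 3.58.1, R 4.3.3) on all 16 columns and 19960 targets, without Tmem119, Gfap and the negative probe, with Benjamini-Hochberg adjustment over all targets and a threshold of 0.05. The steps were tested on simulated data.

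The 9 genes and the marker lists were chosen with earlier results of these data known. Named genes are the 9, the checks Tmem119, Gfap and Lyn, from each list the 3 passing genes of lowest adjusted p at most and up to 2 abundant genes that did not pass, and the 3 targets most like each gene above background. Some genes of the lists are counted but not reported here by name. The text uses part of these and says where it names others; Slc17a7 and the levels of Penk by column were likewise described after their values were seen. Marker lists for astrocytes, oligodendrocytes, endothelial cells and brain areas were also run: in 5xFAD against WT 1 of 9, 3 of 10 and 1 of 8 fell, and of 15 area markers 2 rose and 1 fell, where 8.23% of all targets fell and 5.99% rose; 0 passed in the comparisons with 5xFAD-LynKO. The alternatives were other scalings, pseudocounts of 5 and 0.1, negative probe subtraction, a background filter, weights per array, blocking on the heading number, neuronal covariates and leaving out columns. Promoter sequences are from RefSeq (GRCm38.p6), where all 9 symbols matched. Figures were drawn with matplotlib 3.10.9.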

Additional observations from a re-analysis of the deposited data

Results flagged for a closer look

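Of 27 groups of columns (9 genes in 3 genotypes), 2 held a column far from the others, where chance gives about 1 in 20. Both were Vip. In 5xFAD, column 4 was at 0.983 times the column median and the other 4 at 0.727 to 0.779. In 5xFAD-LynKO, column 5 was at 1.79 times and the other 4 at 0.806 to 1.01. That column also held the highest Gad2 of any column, at 2.93 times the median. Calb2, which encodes calretinin and is found in many Vip cells, was at 1.69 times in it, its highest of the 16 columns, and was picked after its values were seen. The neuropeptide genes Nts and Gal also had their highest levels there, at 2.68 and 2.20 times. Htr3a, another of the interneuron markers, was at only 0.822 times. These 3 were likewise picked after their values were seen, and whether the column held more Vip cells was not tested.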

How the results depend on the processing

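None of the 9 genes passed under any of the 29 alternatives in any comparison, including the replicate block of the heading number (0 called in each). With only targets above background, 4 of the 9 could be tested. The lowest adjusted p of any of them was 0.0522 in 5xFAD against WT (Vip without 5xFAD-LynKO column 5), 0.144 in 5xFAD-LynKO against 5xFAD (Vip without 5xFAD column 4) and 0.429 in 5xFAD-LynKO against WT (Cck). The sign of uncalled differences turned in 44, 29 and 49 of 256 fitted values. Whether the heading numbers pair the columns was not settled. Same-numbered columns correlated from -0.389 to 0.665, with 8 of 15 pairs over 0.1. Those numbered 2 correlated at 0.409, 0.473 and 0.665, and those numbered 4 at -0.149, -0.183 and -0.252. Columns were most like their own number in 10 of 30 cases, and no chance level was computed for that count. The block gave 2615, 0 and 16 calls over all targets.

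Counts over all targets moved more. For 5xFAD against WT, 2839 targets passed (42.1% higher), but 1520 with the negative probe subtracted (10.7% higher), 596 among targets above background (2.18% higher), 3498 with negative probe scaling (14.5% higher), 3048 with upper quartile scaling (60.6% higher), 3948 with array weights, the highest count, 1638 without WT columns 1 and 3, and 1624, 1416 and 1396 without 5xFAD columns 2, 3 and 5. For 5xFAD-LynKO against 5xFAD, 0 became 183 with quantile normalization, 643 with array weights, 20 with subtraction, 34 and 2 with the pan-neuronal and excitatory covariates, 129 without 5xFAD column 4, 2 without WT column 1 and 1 without WT columns 1 and 3. For 5xFAD-LynKO against WT, 12 became 1 to 15 when a column was left out (1 without 5xFAD-LynKO column 1 or 3) and 3 to 17 under the other settings. The covariates for excitatory and striatal neurons were chosen after seeing the data. A planned count-based fit with edgeR was not run, because the smallest values lie 9 to 66 steps above 0 and the deposited unit is a signal. Signal over background limits Npy, Pvalb, Sst and Vip most.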
